A study of Mus musculus with 16 samples.

Results

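In hematopoietic stem cells (HSCs) of aged mice, 689 of 20720 protein-coding genes on chromosomes 1 to 19 carried both H3K4me3 and H2AK119ub1 at a promoter. A gene was counted when an H3K4me3 peak and an H2AK119ub1 region each overlapped, by 1 bp or more, the 1 kb on either side of any of its protein-coding start sites (GENCODE M21, basic transcripts). The cells came from bone marrow of female C57BL/6 mice aged 20 months. They were sorted as CD150+ cells among Lin- Sca-1+ c-kit+ cells that were also IL-7-, CD34-, Flt3- and CD48-, and the same sort of 10-week mice (young HSCs) serves here only to give the earlier state of the same genes. No genetic change or treatment was applied to either age. Each mark was assayed by chromatin immunoprecipitation and sequencing in 2 libraries per age, but the peaks came as 1 pooled list per mark and age. No spread between replicates could therefore be measured, and no difference was tested. Shares below carry Wilson 95% confidence intervals and medians carry 95% order-statistic intervals, which cover counting error over genes or peaks and nothing else.

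H3K4me3 is laid down by the COMPASS and MLL methyltransferases around the start sites of active or poised genes. H2AK119ub1 is placed by the ubiquitin ligases RING1 and RNF2 within Polycomb repressive complex 1 (PRC1), and H3K27me3 by EZH1 or EZH2 within Polycomb repressive complex 2 (PRC2). In embryonic stem cells, promoters with H3K4me3 together with Polycomb marks are called bivalent and belong largely to developmental regulators rich in CpG dinucleotides.

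The 6 stretches of 150 bases below come from the middle of an overlap between both marks and are shown because they are the bases that both antibodies enriched. Each is written 5′ to 3′ on the gene's own strand from mm10 (GRCm38), with every CG in capitals. The windows of Tbc1d2b and Braf lie in introns, those of Hoxb9 and Lhx9 include coding exon, and those of Hey2 and Cbx8 lie upstream of the gene. The first 3 genes lacked H3K27me3 at their promoters in aged HSCs and the last 3 carried it.
Tbc1d2b, chr9:90270044-90270193, minus strand: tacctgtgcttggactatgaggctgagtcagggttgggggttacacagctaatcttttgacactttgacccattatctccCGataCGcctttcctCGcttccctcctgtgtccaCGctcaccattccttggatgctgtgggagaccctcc
Braf, chr6:39724703-39724852, minus strand: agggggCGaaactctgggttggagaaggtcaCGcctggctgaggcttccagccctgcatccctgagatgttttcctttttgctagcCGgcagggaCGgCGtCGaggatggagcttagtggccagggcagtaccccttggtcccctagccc
Hoxb9, chr11:96272011-96272160, plus strand: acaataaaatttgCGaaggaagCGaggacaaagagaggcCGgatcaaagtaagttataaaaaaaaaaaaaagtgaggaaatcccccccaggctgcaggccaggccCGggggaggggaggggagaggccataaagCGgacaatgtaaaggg
Hey2, chr10:30843560-30843709, minus strand: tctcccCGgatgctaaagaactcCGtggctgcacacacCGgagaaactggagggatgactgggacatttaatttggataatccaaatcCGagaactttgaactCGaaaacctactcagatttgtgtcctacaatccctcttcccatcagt
Lhx9, chr1:138841734-138841883, minus strand: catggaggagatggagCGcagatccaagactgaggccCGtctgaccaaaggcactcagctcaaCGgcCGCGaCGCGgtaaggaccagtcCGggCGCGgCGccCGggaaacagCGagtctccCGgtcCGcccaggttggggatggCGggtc
Cbx8, chr11:119041441-119041590, minus strand: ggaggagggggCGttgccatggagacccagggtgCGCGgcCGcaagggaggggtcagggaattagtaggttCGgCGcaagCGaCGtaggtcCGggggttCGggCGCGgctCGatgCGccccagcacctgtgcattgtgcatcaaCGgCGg

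CG, the dinucleotide in capitals, reads the same on both strands. The windows of Tbc1d2b, Hoxb9 and Hey2 held 4, 5 and 5, that of Braf held 6, and those of Lhx9 and Cbx8 held 16 each. Over the 243 distinct overlaps at both-mark promoters, a window of this length held a median of 6 (6 to 7), and all 243 held at least 1. At all 39515 distinct start sites of chromosomes 1 to 19 the median was 8 (8 to 8), and 90.6% of windows held at least 1. The median at the overlaps was thus below that at start sites, whereas windows with 5 or more were more frequent at the overlaps (74.5%, 68.7 to 79.6) than at start sites (61.8%, 61.4 to 62.3).

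The lists were first set against each other as intervals. Of 6686 H3K4me3 peaks, 396 (5.92%, 5.38 to 6.51) overlapped H2AK119ub1. Of 16796 H2AK119ub1 regions, 395 (2.35%, 2.13 to 2.59) overlapped H3K4me3. The shared length was 74273 bp, which is 3.62% of the length under H3K4me3 and 1.03% of the length under H2AK119ub1. The summit of the H3K4me3 peak lay inside the H2AK119ub1 region in 250 of the 396 cases (63.1%, 58.3 to 67.7), and 108 peaks lay inside it whole.

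H3K4me3 peaks away from promoters overlapped H2AK119ub1 more often than promoter peaks did. The share was 11.3% (9.68 to 13.2) of 1255 peaks away from promoters and 4.68% (4.15 to 5.27) of 5431 promoter peaks. The 142 overlapped peaks away from promoters lay a median of 3387 bp (2627 to 5268) from the nearest start site, against 6703 bp (5487 to 8314) for the other 1113. Gene bodies held 54.9% of the former and 56.7% of the latter. For H2AK119ub1 the order was opposite, with H3K4me3 over 6.86% (6.10 to 7.70) of 3864 promoter regions and 1.01% (0.847 to 1.19) of 12932 regions elsewhere.

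Overlap with H2AK119ub1 was less frequent at the more enriched H3K4me3 peaks. When the peaks were ranked by fold enrichment and cut into 4 bins, 6.97% (5.92 to 8.18) were overlapped in the lowest bin (1.67-fold to 3.76-fold) and 4.19% (3.25 to 5.39) in the highest (4.65-fold to 7.52-fold). In the other direction, H2AK119ub1 regions that overlapped H3K4me3 had a median width of 409 bp (379 to 453) and a median enrichment of 3.33-fold (3.29 to 3.37), against 326 bp (323 to 329) and 3.23-fold (3.22 to 3.23) for the rest. A wider region meets another interval more readily, and the part of width in this result was not tested. Allowing a gap of 1000 bp between the marks raised the share of H3K4me3 peaks with a neighbouring H2AK119ub1 region to 14.6% (13.8 to 15.4), and a gap of 10000 bp raised it to 27.1% (26.1 to 28.2).

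Positions with both marks differed from other H3K4me3 peaks in H3K27me3. An H3K27me3 region lay over 109 of the 396 overlapped peaks (27.5%, 23.4 to 32.1) and over 58 of the other 6290 (0.922%, 0.714 to 1.19). Away from promoters, 60 of the 142 overlapped peaks (42.3%, 34.4 to 50.5) lay under H3K27me3. The young H3K27me3 list covered 102 of these 142 positions (71.8%, 63.9 to 78.6) and 77 of the other 1113 H3K4me3 peaks away from promoters (6.92%, 5.57 to 8.56).

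At promoters, H3K4me3 marked 5061 genes, 24.4% of all 20720, and H2AK119ub1 marked 2993 genes, 14.4% of all. Both were present at 689 genes, 3.33% of all. These rested on 794 distinct H3K4me3 peaks and 856 distinct H2AK119ub1 regions, and 72 of the genes shared a promoter H3K4me3 peak with another both-mark gene. H3K4me3 alone marked 4372 genes, H2AK119ub1 alone 2304, and 13355 had neither. Between 10.3% (chromosome 17) and 19.3% (chromosome 15) of the H3K4me3 genes of a chromosome carried H2AK119ub1. With promoters of 500 bp and 2 kb on either side the number of both-mark genes was 365 and 996, and with stricter thresholds on the −log10 q-value (3 for H3K4me3 and 2 for the broad lists) it was 236, so the count depends on the window and more on the threshold.

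The sort was checked against blood cell markers. H3K4me3 was present at 7 of 10 HSC markers, among them Kit, Procr, Fgd5, Tek, Esam and Ctnnal1, and absent from the list at Slamf1, Ly6a and Hoxb5. It was present at 1 of 22 markers of B, T, myeloid and erythroid cells, the B lineage factor gene Ebf1. Over all genes 24.4% had H3K4me3. Among 13 autosomal housekeeping genes only 7 had a listed H3K4me3 peak. Gapdh, B2m, Ppia, Ywhaz and Polr2a were among those with none, so a promoter without a listed peak cannot be read as free of H3K4me3. The same limit holds for the lineage markers, so their missing peaks cannot show how pure the sort was. The median H3K4me3 peak held 19 reads at its summit over a background of 3.52, as recovered from its fold enrichment and p-value.

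H2AK119ub1 was about as frequent at genes with H3K4me3 as at genes without it. It was present at 13.6% (12.7 to 14.6) of the 5061 genes with H3K4me3 and at 14.7% (14.2 to 15.3) of the 15659 without. The sign of this small difference turned with a promoter of 2 kb (0.656 percentage points higher with H3K4me3) and without genes that have a neighbouring start (0.625 points higher). Genes were then compared with others of like CpG content. The measure was the ratio of CpG counted to CpG expected from base composition, within 500 bp of the start sites, and all genes were cut into 4 bins of it. In the bin from 0.55 to 0.76, H2AK119ub1 was present at 14.0% (12.5 to 15.6) of 1960 genes with H3K4me3 and at 27.1% (25.6 to 28.7) of 3220 without. In the bin above 0.76 the shares were 10.8% (9.53 to 12.2) of 2086 and 19.9% (18.5 to 21.4) of 3094. In the CpG-poor bins the order was opposite. From 0.24 to 0.55 the shares were 19.1% (16.8 to 21.8) of 951 genes with H3K4me3 and 16.4% (15.3 to 17.6) of 4229 without, with intervals that overlapped, and in the lowest bin they were 12.5% (6.47 to 22.8) of 64 and 2.35% (1.97 to 2.80) of 5116.

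**Figure D1:**
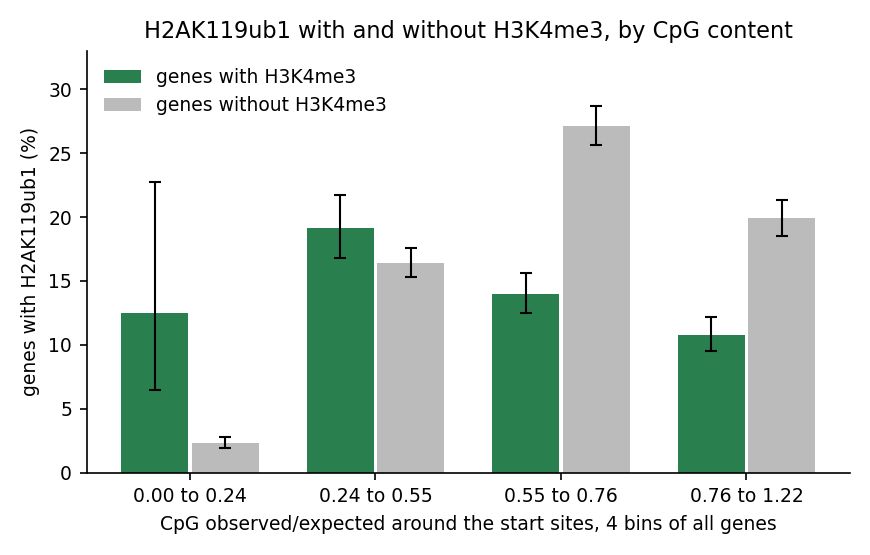
Share of genes with H2AK119ub1 at a promoter in 20-month HSCs, as bars with Wilson 95% intervals, for genes with and without H3K4me3 in 4 bins of CpG observed over expected. In the 2 CpG-rich bins the bars for genes with H3K4me3 stand at 14.0% and 10.8%, below those for genes without it at 27.1% and 19.9%, and in the 2 CpG-poor bins they stand at 12.5% and 19.1%, above 2.35% and 16.4%.

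Both-mark promoters lay between the single-mark classes in CpG content. The median ratio was 0.68 (0.66 to 0.70) in both-mark genes, 0.72 (0.72 to 0.73) with H3K4me3 only, 0.64 (0.63 to 0.65) with H2AK119ub1 only and 0.36 (0.35 to 0.37) with neither mark. Both-mark genes had a median length of 35.1 kb, against 22.7 kb with H2AK119ub1 only and 13.9 kb with neither mark, and genes with H3K4me3 only lay between both-mark genes and those with H2AK119ub1 only. More than 1 start site was annotated for 62.4% (58.7 to 65.9) of them and for 53.0% (51.0 to 55.1) of the genes with H2AK119ub1 only. A gene with more start sites has more promoter windows in which a mark can fall, and the part of this in the class sizes was not tested beyond the genes with 1 start site, of which 259 carried both marks. A start of another gene lay within 2 kb in 16.0% (13.4 to 18.9) of both-mark genes, against 27.7% (26.4 to 29.0) with H3K4me3 only and 8.85% (7.76 to 10.1) with H2AK119ub1 only.

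Carrying both marks did not mostly mean sharing the same bases. In 258 of the 689 genes (37.4%, 33.9 to 41.1) a promoter H3K4me3 peak and a promoter H2AK119ub1 region overlapped. In 371 (53.8%, 50.1 to 57.5) they stood apart at the same start site, and in 60 (8.71%, 6.83 to 11.0) they lay at different start sites of the gene. Where they overlapped, the shared stretch ran from 1 to 615 bp with a median of 178 bp. Where they stood apart, the gap ran from 3 to 1932 bp with a median of 468 bp (392 to 522).

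The longest shared stretches were found at genes of quite different kinds. At Sox6, a transcription factor gene of the SOX family, the whole 615 bp H3K4me3 peak at chr7:116039347-116039961 lay within a 1759 bp H2AK119ub1 region (3.31-fold and 3.69-fold enrichment). At Tbc1d2b, a gene with a TBC domain found in Rab GTPase regulators, 524 bp were shared between a 4.42-fold H3K4me3 peak and a 3.68-fold H2AK119ub1 region at chr9:90269841-90270380, over coding exon. At Gata6, a zinc finger regulator of endoderm and heart, the whole 522 bp H3K4me3 peak lay in a 1558 bp H2AK119ub1 region over the UTR. These 3 genes differed in H3K27me3, which was present at Sox6 and Gata6 and absent at Tbc1d2b.

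The next overlaps were at signalling and growth genes. At Slc9a3r1, a scaffold of membrane transporters, 507 bp were shared, and at the phosphatase gene Ppm1e 487 bp. At Braf, the RAF kinase that activates MEK, 449 bp were shared in an intron, between a peak of 21 reads (4.71-fold) and a 473 bp region (3.36-fold), at chr6:39724554-39725002. Both marks of Braf centred about 0.7 kb downstream of a start, at 720 bp for the H3K4me3 summit and 697 bp for the H2AK119ub1 midpoint. At Myc, the transcription factor of growth and proliferation, the whole 410 bp peak at chr15:61985663-61986072 (4.42-fold, UTR and coding exon) lay inside a 474 bp H2AK119ub1 region (3.97-fold). At Cnih3, an auxiliary subunit of AMPA receptors, the whole 438 bp peak lay inside a 1621 bp region. None of these 5 carried H3K27me3 in the aged list, and Ppm1e and Cnih3 had carried it in the young list.

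The most enriched H3K4me3 peaks of both-mark genes were at Ahdc1 and Tmem115. At both genes the promoter peak reached 7.07-fold (31 reads, −log10 q 11.5). H2AK119ub1 lay 1002 bp away from it at Ahdc1, on the upstream side, and 42 bp away at Tmem115. At Cbll1, which encodes an E3 ubiquitin ligase, the promoter held 2 H3K4me3 peaks, and the one nearest to H2AK119ub1 (3.68-fold, 377 bp away) had the lower −log10 q-value of the 2. At Frmd4a the H3K4me3 peak (6.63-fold) and the H2AK119ub1 region belonged to different start sites.

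The widest H2AK119ub1 regions were at developmental regulators. At Lhx9, a LIM homeobox gene, H2AK119ub1 spanned 5276 bp (chr1:138839615-138844890) and a 200 bp H3K4me3 peak of 3.54-fold (15 reads) lay wholly inside it, over coding exon. The widest promoter regions at Prox1, Foxb2 and Tbx3, all transcription factor genes, measured 2639, 2451 and 2401 bp. All 4 carried H3K27me3.

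Around the start site the marks took different places. At genes with 1 start site and both marks, H3K4me3 covered most genes 200 bp downstream of the start (33.2%) and H2AK119ub1 most genes 650 bp downstream (34.0%). At the start itself the shares were 12.7% and 7.72%. Each mark also had a lower maximum upstream, at 20.5% of genes, which H3K4me3 reached 300 to 350 bp and H2AK119ub1 450 bp upstream. The fall beyond 1 kb follows from the rule that chose the genes.

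**Figure D2:**
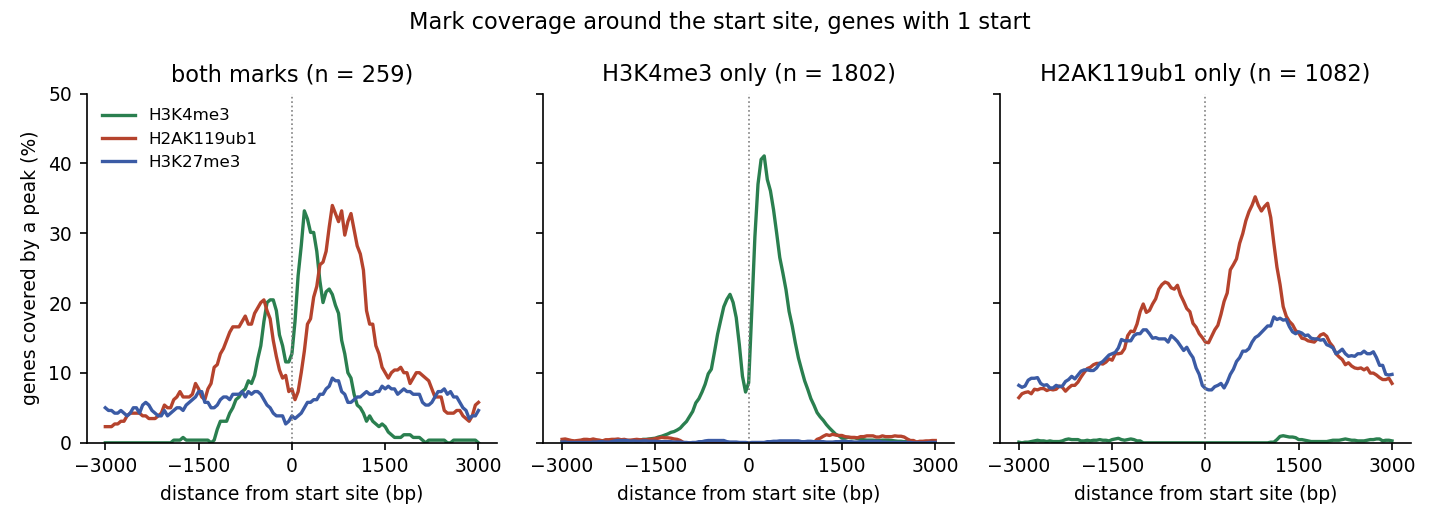
Share of genes covered by a peak of each mark at steps of 50 bp from 3 kb upstream to 3 kb downstream of the start site, for genes with 1 start site in 20-month HSCs, by promoter class. In the both-mark class (n = 259) H3K4me3 is highest at 200 bp and H2AK119ub1 at 650 bp downstream, and both dip around the start.

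Over all 689 genes and their nearest start sites, the H3K4me3 summit lay at a median of 130 bp downstream (92 to 158) and the H2AK119ub1 midpoint at 305 bp downstream (243 to 379). At genes with H3K4me3 only the median summit was at 165 bp (157 to 173), and the summit was downstream in 69.3% (67.9 to 70.7) of them against 60.1% (56.4 to 63.7) of both-mark genes. The H2AK119ub1 midpoint at genes with H2AK119ub1 only had a median of 214 bp (156 to 251), so its interval overlapped that of the both-mark genes. Within 200 bp of a start lay 33.2% of the H3K4me3 summits and 13.6% of the H2AK119ub1 midpoints.

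Where the marks stood apart at 1 start, they lay on opposite sides of it in 205 of 371 genes (55.3%, 50.2 to 60.2). Of these, 114 genes had H3K4me3 upstream and H2AK119ub1 downstream, and 91 the reverse. Both marks lay downstream in 118 genes and both upstream in 48. An example of the first kind was Cebpa, the master regulator of granulocyte fate, with the H3K4me3 summit 331 bp upstream and the H2AK119ub1 midpoint 586 bp downstream in the coding exon. Hhex, a homeobox gene of HSCs, had the reverse order, with H3K4me3 at 656 bp downstream and H2AK119ub1 652 bp upstream. Where the marks overlapped, their centres lay on opposite sides in only 25 of 258 genes (9.69%, 6.65 to 13.9). Intervals that share bases must lie close together. In the same way, intervals that share no bases must be set apart within the promoter window, which can place them on opposite sides. The part of this in the 55.3% was not tested.

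**Figure D3:**
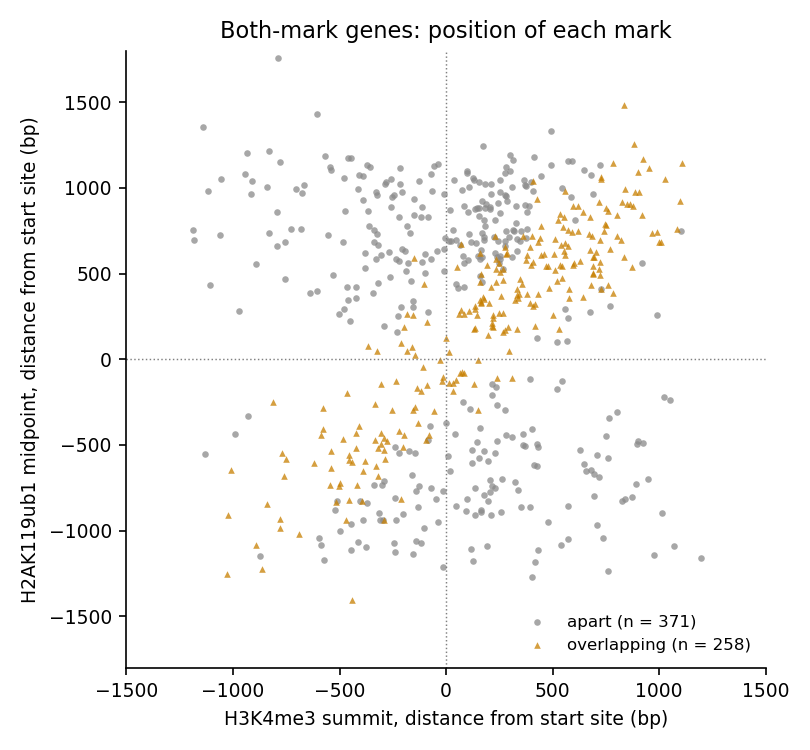
Distance from the start site, in bp, of the H3K4me3 summit (horizontal) and of the H2AK119ub1 midpoint (vertical) for the 629 both-mark genes with both marks at 1 start site, positive values being downstream. Overlapping pairs (triangles, n = 258) follow the diagonal by construction, whereas the pairs that stood apart (circles, n = 371) fall in all 4 quadrants, 205 of them on opposite sides of the start.

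H3K27me3 was present at 134 of the 689 both-mark genes (19.4%, 16.7 to 22.6), against 8.20% of all genes. It was present at 37 of 4372 genes with H3K4me3 only (0.846%, 0.615 to 1.16), at 933 of 2304 genes with H2AK119ub1 only (40.5%, 38.5 to 42.5) and at 4.46% (4.12 to 4.82) of genes with neither. The intervals of these 4 classes did not overlap. H3K4me3 and H3K27me3 together, without H2AK119ub1, were thus seen at those 37 genes. The order of the 3 marked classes was the same under every alternative tried, with shares of 10.6% to 21.8% in both-mark genes, 28.1% to 44.0% with H2AK119ub1 only and 0.604% to 1.16% with H3K4me3 only.

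**Figure D4:**
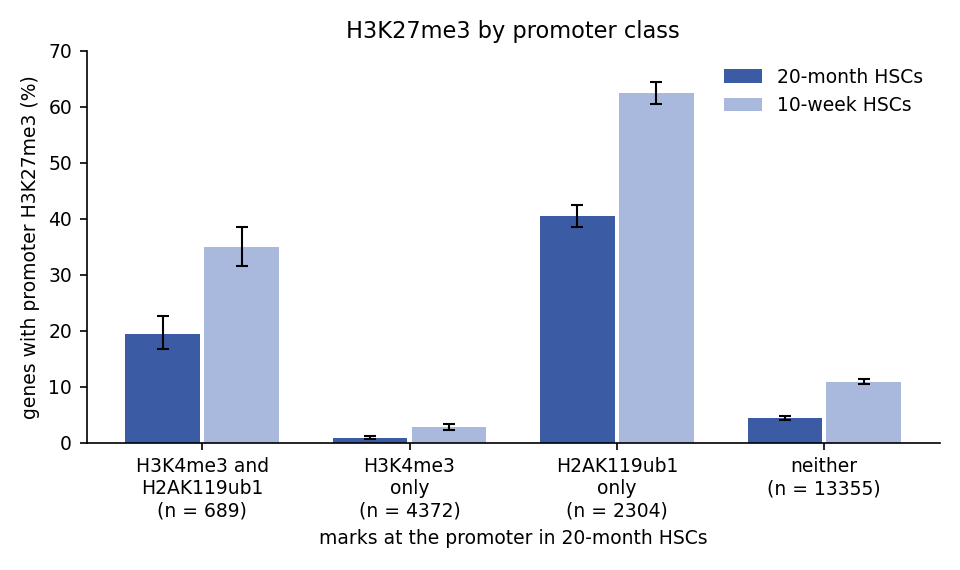
Share of genes with H3K27me3 at a promoter in 20-month and 10-week HSCs, as bars with Wilson 95% intervals, by the marks present in 20-month HSCs. Both-mark genes (19.4% and 35.0%) stand between genes with H3K4me3 only (0.846% and 2.81%) and genes with H2AK119ub1 only (40.5% and 62.5%) at both ages.

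The 134 three-mark genes differed from the other 555 both-mark genes in where H2AK119ub1 lay. Its midpoint had a median of 49 bp (-93 to 181) from the start at three-mark genes and 365 bp (293 to 438) at the others, and it lay within 200 bp of a start in 25.4% (18.8 to 33.4) against 10.8% (8.49 to 13.7). The H2AK119ub1 regions themselves were wider, with medians of 454 bp (405 to 517) and 328 bp (312 to 345). H3K4me3 and H2AK119ub1 overlapped at 69 of the 134 genes (51.5%, 43.1 to 59.8) and at 189 of the 555 (34.1%, 30.2 to 38.1). The H2AK119ub1 regions numbered 246 at the 134 genes and 610 at the 555. The midpoint nearest to a start was the one kept, so more regions per gene bring it nearer, and wider regions meet a peak more readily. The part of region number and width in these differences was not tested. H3K27me3 shared bases with the H2AK119ub1 region in 105 of the 134 (78.4%, 70.6 to 84.5) and with the H3K4me3 peak in 65 (48.5%, 40.2 to 56.9). Three-mark promoters had a lower CpG ratio, 0.63 (0.56 to 0.66) against 0.70 (0.68 to 0.72).

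Wide H3K27me3 regions at three-mark genes were at Lhx9 (5335 bp), the DM-domain gene Dmrt2 (3897 bp), Gata6 (3348 bp), Gad2, which encodes a glutamate decarboxylase of neurons (2894 bp), and Flrt2, a cell surface adhesion protein (2259 bp). These 5 genes also had an overlap between H3K4me3 and H2AK119ub1, of 17 bp at Dmrt2, 63 bp at Gad2, 177 bp at Flrt2, 200 bp at Lhx9 and 522 bp at Gata6. All 5 carried H3K4me3 and H3K27me3 in young HSCs as well.

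The young lists gave the earlier state of the same genes. In young HSCs, H3K4me3 was listed at 460 of the 689 both-mark genes (66.8%, 63.2 to 70.2), against 35.4% of all genes. H3K27me3 was listed at 241 (35.0%, 31.5 to 38.6), against 15.8% of all genes. H2AK119ub1 was listed at 33 (4.79%, 3.43 to 6.65), against 2.00% of all genes, and at 292 of the 2304 genes with H2AK119ub1 only (12.7%, 11.4 to 14.1). The lists differ in length, with 2535 young and 16796 aged H2AK119ub1 regions and 50640 young and 15926 aged H3K27me3 regions, so that fewer or more marked genes in a list cannot be told apart from a list that reached less or more deeply.

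By combination, 310 of the 689 genes (45.0%) had H3K4me3 alone in young HSCs, 129 (18.7%) had H3K4me3 with H3K27me3, 82 (11.9%) had H3K27me3 alone and 135 (19.6%) had no listed mark. Both H3K4me3 and H2AK119ub1 were already listed at 21 genes (3.05%, 2.00 to 4.61), of which 19 also had H3K27me3. The both-mark genes of young HSCs numbered 88 in all. Genes whose aged marks overlapped directly had carried H3K27me3 in young HSCs more often (44.6%, 38.6 to 50.7) than those with marks apart at 1 start (25.3%, 21.2 to 30.0), and the corresponding aged shares were 26.7% (21.7 to 32.5) and 12.9% (9.90 to 16.7). The 60 genes with the marks at different starts, which share no bases there, had shares of 53.3% (40.9 to 65.4) and 28.3% (18.5 to 40.8).

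Most H2AK119ub1 genes of developmental families had no listed H3K4me3 peak, which was true of 2304 of all 2993 H2AK119ub1 genes. Over all genes 14.4% had H2AK119ub1 and 3.33% both marks. All 12 LIM homeobox genes had H2AK119ub1 and H3K27me3, and only Lhx9 had a listed H3K4me3 peak as well. In young HSCs H3K4me3 was also listed at Lhx2, Lhx4, Lhx6, Lhx8 and Lmx1a. Of 39 Hox cluster genes 29 had H2AK119ub1, but only Hoxb1, Hoxb6 and Hoxb9 had both marks. None of these 3 had H3K27me3 in the aged list, although all 3 had it in the young list. Both marks were also present at the homeobox genes Nkx2-9, Dlx5 and Dlx4. All 8 PAX genes with H2AK119ub1 lacked a listed H3K4me3 peak, although Pax2, Pax3 and Pax6 had one in young HSCs. In the T-box family 4 of 16 genes had both marks (Tbx1, Tbx3, Eomes and Tbr1), each with H3K27me3.

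Genes of developmental signalling pathways also had members with both marks, which 3.33% of all genes carried. Both marks were present at 3 of 29 WNT and Frizzled genes (Wnt16, Wnt5a and Fzd7), at 3 of 20 FGF genes (Fgf9, Fgf10 and Fgf18) and at 3 of 29 TGF-beta and BMP pathway genes (Smad5, Smad6 and Smad7). At Fgf9 338 bp were shared, at Fgf10 304 bp and at Wnt16 276 bp, and all 3 carried H3K27me3. In the Notch pathway 5 of 17 genes had both marks. These were the ligands Jag1 and Dll4, the effectors Hey1 and Hey2, which are transcriptional repressors, and Numb, which antagonises Notch. Hey1 and Hey2 carried H3K27me3, and the receptors Notch1 and Notch3 had H2AK119ub1 only.

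Both marks were found at transcription factors of blood formation. Over all genes 3.33% had both marks. None of the 10 HSC markers had both, too few genes to set apart from that share. Of 20 HSC transcription factors 4 had both marks, namely Runx1, Erg, Fli1 and Hhex, and 10 had H3K4me3 only, among them Meis1, Mecom, Tal1, Myb and Hlf. None of the 4 had overlapping peaks. At Runx1 and Erg the marks belonged to different start sites of the gene, and at Fli1 they were 1794 bp apart at 1 start. The H2AK119ub1 call at Fli1 was weak, with a −log10 q-value of 1.18 where the lowest in the list was 1.07. Other named both-mark genes also had H2AK119ub1 calls below the list median of 1.72. Among them were Numb (1.26), Hoxb1 (1.39), Cbx2 (1.42), Cdkn1b (1.45) and Cebpa (1.48). Others lay above that median, such as Klf4 (3.39) and Myc (3.22). Of 10 myeloid factors 3 had both marks (Cebpa, Egr2 and Klf4), and 4 of 15 lymphoid factors, among them Ebf1, Id2 and Foxo1. At Ebf1, the early B cell factor, 60 bp were shared. Erg, Ebf1 and Egr2 also carried H3K27me3. Pax5, Ikzf3, Bcl11b, Lef1 and Tcf7 had H2AK119ub1 without H3K4me3, and of these Tcf7 lacked H3K27me3 and the other 4 carried it. Of 10 CDK inhibitors and D cyclins, Cdkn1b and Cdkn2c had both marks, while the Polycomb targets Cdkn2a and Cdkn2b had H2AK119ub1 and H3K27me3 without H3K4me3. Of 17 genes listed as raised in HSC ageing, Jam2 and Itgb3 had both (11.8%). The calls at Itgb3 were weak, with −log10 q-values of 1.93 for H3K4me3 and 1.18 for H2AK119ub1.

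Genes of the Polycomb machinery were set against all genes, of which 3.33% had both marks, 24.4% H3K4me3 and 14.4% H2AK119ub1. Of 23 PRC1 genes 5 had both marks, among them Cbx2, Cbx8, Pcgf2 and Auts2. Cbx2 and Cbx8, whose products read H3K27me3, are both on chromosome 11, with H3K4me3 peaks at chr11:119023127-119023382 and chr11:119041258-119041601. The marks shared 171 bp at Cbx8 and stood 790 bp apart at Cbx2. H3K4me3 alone was present at 9 PRC1 genes, including the ligase Rnf2, its partner Bmi1 and Phc1, Phc2 and Phc3. H2AK119ub1 alone was present at Kdm2b, Rybp, Pcgf1 and Pcgf6, and neither at Ring1, Cbx7, Yaf2, E2f6 and Mga. None of the 11 PRC2 genes had both marks, too few genes to set apart from 3.33%. Eed, Jarid2, Mtf2 and Rbbp4 had H3K4me3 only, Epop and Phf19 had H2AK119ub1 without H3K4me3 (Epop with H3K27me3 as well), and Ezh1, Ezh2, Suz12, Aebp2 and Phf1 had neither. Among the genes tied to the removal of ubiquitin from H2A, Asxl3 had H2AK119ub1 and Bap1, Asxl1, Asxl2, Usp16 and Mysm1 had neither mark. Of 15 H3K4 methyltransferase and demethylase genes Kmt2b alone had both marks, sharing 70 bp, again too few genes to set apart from that share.

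Genes of basic cell functions rarely had listed H2AK119ub1, and about as many had no listed H3K4me3 as had it. H2AK119ub1 was present at 4 of 78 cytosolic ribosomal protein genes, 4 of 78 mitochondrial ribosomal protein genes and 1 of 47 proteasome genes. These shares were 5.13%, 5.13% and 2.13%, against 14.4% of all genes. H3K4me3 was present at 36, 32 and 23 (46.2%, 41.0% and 48.9%, against 24.4% of all genes). Both marks were found at 2 (Rps21 among them), 3 (Mrpl10, Mrpl21 and Mrpl48) and 1 (Psme4). Those shares of 2.56%, 3.85% and 2.13% were near the 3.33% of all genes. Of 35 NADH dehydrogenase genes 20 had H3K4me3 and none H2AK119ub1. Only 3 of 358 Zfp zinc finger genes (0.838%) had both marks, below the 3.33% of all genes. None of 1086 olfactory receptor genes did, but H3K4me3 was listed at only 1 of them and H2AK119ub1 at 2. Their lack of both marks therefore says nothing about the combination.

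**Figure D5:**
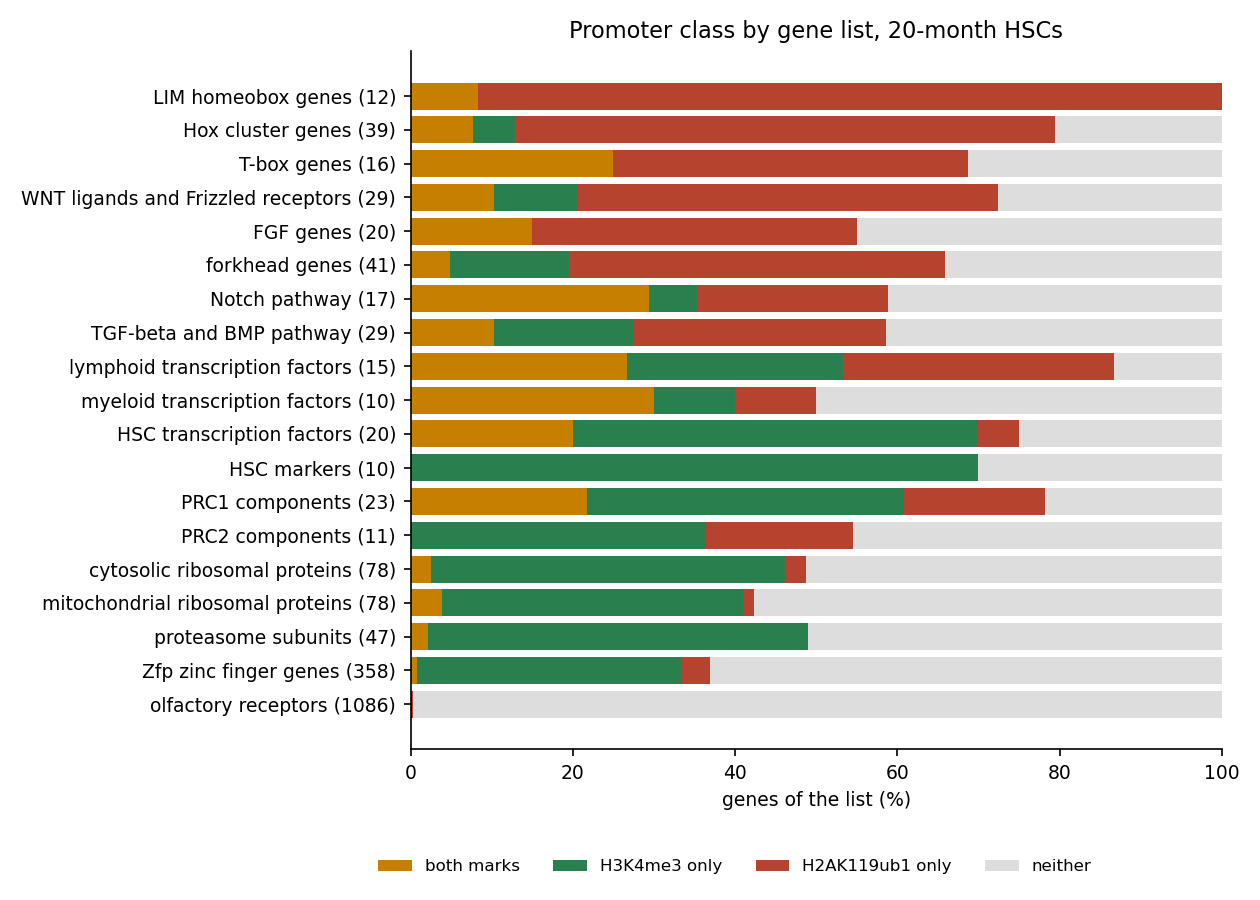
Share of the genes of 19 lists in each promoter class in 20-month HSCs, with the number of autosomal genes in brackets. Most of the LIM homeobox, Hox, and WNT and Frizzled genes are in the class with H2AK119ub1 only, ribosomal and proteasome genes in the classes with H3K4me3 only or neither, and the both-mark class is largest in myeloid factors (30.0%) and the Notch pathway (29.4%).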

How the data were processed

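ChIP-seq libraries of H3K4me3, H2AK119ub1 and H3K27me3 from young and aged HSCs (2 per mark and age) were aligned by the authors to mm10 with Bowtie2. The submitters' processing notes name MACS2 2.2.6. The deposited lists (narrow peaks for H3K4me3, broad regions otherwise) give a score, a fold enrichment (linear ratio), and the −log10 p-value and −log10 q-value of each peak. Replicates were pooled by the authors, and broad peak names carry 1 library number, so whether both replicates entered is not certain. The depth of each library is unknown.

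Positions and the listed fold enrichments, p-values and q-values were used, in Python 3.11.15 (numpy 2.4.6, pandas 2.3.3, scipy 1.17.1, pysam 0.24.0, samtools 1.23.1, matplotlib 3.10.9), after the interval code had been tested on simulated data. The summit stood for an H3K4me3 peak and the midpoint for a broad region. Genes were named by rule: the 8 longest overlaps, the 4 highest H3K4me3 −log10 q-values, the 4 widest H2AK119ub1 and 6 widest H3K27me3 regions, up to 5 per gene list, and all members of the PRC1, PRC2, deubiquitinase and HSC lists. Further members of lists were named after their marks were seen, and some items that the rule names are not reported here. The genes and lists were chosen with earlier results of these data known. There were 6 alternatives fixed at the outset and 2 added later.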

Additional observations from a re-analysis of the deposited data

Results flagged for a closer look

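The main comparison was set to chromosomes 1 to 19, so the marks on chromosome X were left out of it and are counted here. In aged HSCs, which came from female mice, chromosome X held 37 H3K4me3 peaks, 972 H2AK119ub1 regions and 4493 H3K27me3 regions. Of the 37 H3K4me3 peaks, 2 overlapped H2AK119ub1.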

How the results depend on the processing

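No paired analysis was possible because pooled lists hold no replicate values. Of 56 values recomputed for the main results under 8 alternatives, 32 stayed within the interval of the reported value (within 1.5 times for the count of genes) and 24 moved, while the direction of every position was unchanged. Keeping only −log10 q-values from 3 (H3K4me3) or 2 (broad lists) upwards left 2.38% of H3K4me3 peaks and 2.64% of H2AK119ub1 regions overlapping and 236 genes with both marks (5.20% of H3K4me3 genes), 32.6% of them with overlapping peaks, 10.6% with H3K27me3 and 2.12% with young H2AK119ub1. Requiring 50% of the shorter peak left 3.99% of H3K4me3 peaks, 1.58% of H2AK119ub1 regions and 24.5% of both-mark genes with an overlap. Promoters of 500 bp gave 365 genes (8.30% of H3K4me3 genes), 46.6% overlapping, and a median H2AK119ub1 midpoint of 178 bp. Promoters of 2 kb gave 18.7% of H3K4me3 genes with H2AK119ub1, 30.7% of both-mark genes overlapping and 8.73% with young H2AK119ub1. Genes with 1 start site gave 259 genes (12.6%), 43.2% overlapping, an H3K4me3 summit at 176 bp and an H2AK119ub1 midpoint at 411 bp. The other 2 alternatives were chosen after seeing the data. The start sites of all protein-coding transcripts moved the H2AK119ub1 midpoint to 240 bp. Leaving out genes with a neighbouring start within 2 kb gave H2AK119ub1 at 15.5% of H3K4me3 genes. The difference in H2AK119ub1 share between genes with and without H3K4me3, -1.10 percentage points, became 0.656 with promoters of 2 kb and 0.625 without neighbouring starts. The cause of these moves was not tested.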
